A study of Mus musculus with 8 samples.

Results

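The Onecut family holds 3 genes in the mouse, Onecut1, Onecut2 and Onecut3, and all 3 were found by symbol among the 23481 genes of the table. They were read in nuclei of a mutant and a wild type (wt) library, split by a gate on the summed tags of 4 dopamine genes. These are Th, the rate-limiting enzyme of dopamine synthesis, Ddc, the enzyme of its last step, Slc18a2, which loads vesicles, and Slc6a3, the dopamine transporter. Nuclei with at least 5 unique molecular identifiers (UMIs) of these genes per 10000 are called dopamine nuclei, and those below are called other nuclei. The family was picked with its levels in this comparison already known, so the difference between the libraries is given as a description.

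Single nuclei of adult midbrain, sorted by FACS, were sequenced after 10x library preparation (3' chemistry, version 3), in which each tag marks the end of a transcript. All mice were of the strain DatCreEed, named for a Cre driver under the dopamine transporter (Dat) and for Eed, a core subunit of Polycomb repressive complex 2 (PRC2), and were 8 months old. The mutant library came from a pool of 3 mice, 2 female and 1 male, with non-functional PRC2 per the series' design text, and the wt library from another pool of 3 mice with the same sexes. Which part of Eed was deleted, and which alleles the wt mice carried, was not given in the labels. Each library was run on 4 lanes, so 8 samples stand for 1 library per genotype. No replicate was thus available, no test was run, and genotype cannot be told apart from batch, mouse pool or sort.

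Onecut proteins are DNA-binding factors with a single CUT domain followed by a homeodomain. Onecut1, also known as hepatocyte nuclear factor 6, is known for its part in liver and pancreas development. With Onecut2 and Onecut3 it also acts in the embryonic nervous system, where the family helps to set the identity of spinal motor neurons and interneurons and of retinal horizontal cells. PRC2 methylates histone H3 at silenced developmental genes, and many genes for homeodomain factors are among those it keeps silent.

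The mutant library held 3968 nuclei with 88201326 UMIs, and the wt library held 1772 nuclei with 46540890 UMIs. Dopamine nuclei numbered 2875 (72.5%) in the mutant library and 1320 (74.5%) in the wt library, with medians of 19023 UMIs per mutant and 24257.5 UMIs per wt nucleus. Other nuclei numbered 1093 in the mutant and 452 in the wt library, with medians of 14650 mutant and 12471.5 wt UMIs. The gate lay on a continuum: 223 mutant and 78 wt nuclei fell between 4 and 6 UMIs per 10000. The gate genes themselves were lower in mutant dopamine nuclei, whose median was 13.7 gate UMIs per 10000, against 24.3 in wt dopamine nuclei. The libraries shared 4 cell barcodes. Levels are in CPM, the UMIs of a gene scaled by all UMIs of that class and library. Dopamine markers outside the gate summed to 1748 CPM in mutant and 2374 CPM in wt dopamine nuclei, and neuron markers to 4491 CPM in mutant and 5779 CPM in wt nuclei, so both libraries bore the labelled cell type. GABA neuron markers summed to 179 CPM in mutant and 34.0 CPM in wt dopamine nuclei, and glutamate neuron markers to 33.1 mutant and 25.6 wt CPM. Those of serotonin and noradrenaline neurons stayed under 5 CPM in both. Astrocyte markers summed to 325 mutant and 276 wt CPM, oligodendrocyte markers to 148 mutant and 172 wt CPM and precursor markers to 35.0 mutant and 50.3 wt CPM. Microglial, vascular and ependymal markers summed to at most 13.7 CPM each. Eed tags stood at 41.3 CPM in mutant and 21.4 CPM in wt dopamine nuclei. Because the deleted part of Eed is not given, 3' tags of Eed do not check the genotype labels, and "mutant" here means the library labelled as mutant.

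Onecut1 lies at chr9:74861921-74891781 and Onecut3 at chr10:80494835-80517276, both on the plus strand of mm10 in the GENCODE M21 annotation. The promoter of Onecut1 is shown because genes silenced by PRC2 often start in stretches rich in CG pairs. Its 250 bases before the start, chr9:74861671-74861920 on the plus strand of GRCm38.p6 in RefSeq, read 5′ to 3′ with each CG pair in capitals.
Onecut1 promoter: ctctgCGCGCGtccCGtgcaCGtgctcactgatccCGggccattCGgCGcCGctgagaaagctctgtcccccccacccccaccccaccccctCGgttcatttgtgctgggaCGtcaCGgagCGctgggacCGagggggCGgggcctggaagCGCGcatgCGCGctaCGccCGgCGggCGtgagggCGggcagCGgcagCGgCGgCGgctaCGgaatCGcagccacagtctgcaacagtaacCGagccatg
It held 31 CG pairs and was 71.6% G or C. Among 27025 promoters of the same length, 4.93% held at least as many CG pairs, and the medians were 6 pairs and 52% G or C. The letters ATTGAT, a core that Onecut proteins bind, were searched on both strands and had 0 matches in this window, and 6.97% of promoters held them. The letters ATCGAT, which read the same on both strands, had 0 matches as well, and 0.729% of promoters held them. A window without these letters says nothing on binding by the factors.

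The second set of sequences is shown because Onecut transcripts are known targets of miR-9, a microRNA abundant in brain. Mature miR-9-5p comes from 3 hairpins in the mouse, on chromosomes 3, 7 and 13, and its seed (bases 2 to 8, in capitals) pairs with the 7 letters in capitals in each site. The RNA is given as in RefSeq, and sites are DNA letters of the plus strand of mm10, 5′ to 3′, in the longest annotated 3' UTR of each gene.
miR-9-5p: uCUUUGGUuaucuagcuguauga
Onecut1 site at chr9:74889735-74889757: tagtccaaagaaACCAAAGactg
Onecut1 site at chr9:74890340-74890362: aatcacctaggtACCAAAGaaca
Onecut1 site at chr9:74890394-74890416: atgattttaataACCAAAGctat
Onecut3 site at chr10:80515407-80515429: atcacgtttgatACCAAAGattt
Onecut3 site at chr10:80515569-80515591: cctttttactgaACCAAAGatgt
Onecut3 site at chr10:80517137-80517159: tggtccttacccACCAAAGatct
The 7 letters occurred 3 times in the 2183 bases of the Onecut1 3' UTR, and 0.167% of 3001 genes with 3' UTRs of like length held as many. They occurred 14 times in the 14356 bases of Onecut2, against a median of 2 over 30 genes of like length. They occurred 3 times in the 3130 bases of Onecut3, and 0.382% of 2356 genes of like length held as many. A seed match is a description of the letters and was not tested as a site.

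In dopamine nuclei all 3 genes were higher in the mutant library. Onecut2, found in liver and in neurons and annotated at chr18:64340020-64400987 on the plus strand, had 11825 UMIs in 2497 of 2875 mutant dopamine nuclei and 468 UMIs in 229 of 1320 wt dopamine nuclei. Its level was 172 CPM in mutant (95% Poisson interval 169 to 175) and 11.9 CPM in wt dopamine nuclei (10.8 to 13.0), a 14.5-fold difference (13.2 to 15.9). Intervals here and below are exact 95% intervals for counting error only, and they hold no spread between mice.

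Onecut3, which in the mouse is expressed mainly in the developing nervous system, had 1377 UMIs in 842 mutant dopamine nuclei and 14 UMIs in 11 wt dopamine nuclei. Its level was 20.03 CPM in mutant and 0.355 CPM in wt dopamine nuclei, a 56.4-fold difference with an interval of 33.5 to 103. It was 113.7-fold as a mean over nuclei and 129.5-fold without the 5% of nuclei with the most UMIs. Onecut1 had 114 UMIs in 104 mutant dopamine nuclei and 3 UMIs in 3 wt dopamine nuclei, or 1.66 mutant and 0.0762 wt CPM. The ratio was 21.8, and with 3 UMIs on the wt side its interval ran from 7.26 to 107.1. With even fewer wt UMIs, the Onecut1 ratio was 66.5 with the gate at 10 UMIs per 10000 (11.6 to 2656). It was 32.7 in clusters that carry dopamine markers (8.85 to 273), also with fewer wt UMIs. The Onecut1 ratio was 11.05 as a mean over nuclei and 10.03 without clusters with under 50 nuclei of a library. The 3 genes together gave 194 CPM in mutant and 12.3 CPM in wt dopamine nuclei. Levels are not compared between the genes, since 3' tags depend on each transcript's end.

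With a pseudocount of 5 CPM the log2 ratios of mutant to wt were 3.39 for Onecut2, 2.22 for Onecut3 and 0.39 for Onecut1. On that scale 2 of the 3 genes passed 2-fold, beside 0.956% of 16324 genes with at least 50 UMIs that were higher by as much, and 0.3% that were lower. Nothing is read from that count, since the genes were picked on this contrast. Of all genes measured, 12 had a ratio as high as that of Onecut2 and 36 as high as that of Onecut3, themselves included. The median over all genes was 0.02.

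**Figure D1:**
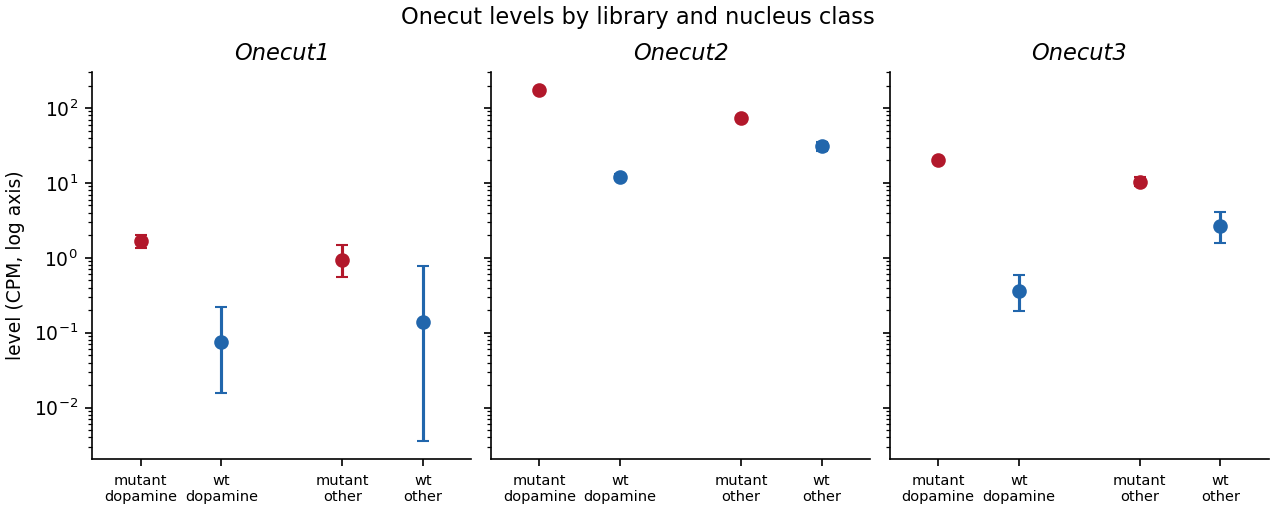
Level in CPM, on a log axis, of each Onecut gene in dopamine and other nuclei of the mutant (red) and wt (blue) library; points are the summed level of 1 library and bars are 95% Poisson intervals. Mutant points lie above wt points in each pair, and the wt point for Onecut2 is lower in dopamine nuclei (11.9 CPM) than in other nuclei (30.7 CPM).

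In other nuclei the family was also higher in the mutant library, by less. Onecut2 stood at 74.7 CPM in mutant and 30.7 CPM in wt other nuclei, 2.43-fold (2.11 to 2.81). Onecut3 stood at 10.4 CPM in mutant and 2.65 CPM in wt other nuclei, 3.91-fold (2.44 to 6.63). Onecut1 had 18 UMIs in mutant and 1 UMI in wt other nuclei, with a ratio of 6.62 and an interval of 1.05 to 276. Onecut2 and Onecut3 both passed 2-fold with the pseudocount, beside 0.282% of 13491 genes that did so upward and 0.326% downward, and Onecut1 had too few UMIs to be counted.

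Within the mutant library, Onecut2 was 2.30-fold higher (2.18 to 2.43) and Onecut3 1.93-fold higher (1.66 to 2.25) in dopamine than in other nuclei. Within the wt library the order was the opposite. There Onecut2 was 2.59-fold lower (2.19 to 3.04) and Onecut3 7.47-fold lower (3.55 to 16.1) in dopamine than in other nuclei. The plot of levels by library and nucleus class shows this crossing.

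The other nuclei were of mixed kinds, and the difference between libraries lay unevenly among them. In the 4 clusters with under 20% dopamine nuclei, Onecut2 was at 60.4 CPM in 420 mutant other nuclei and 48.2 CPM in 219 wt other nuclei, 1.25-fold (1.04 to 1.51). Onecut3 was there at 7.75 CPM in mutant and 5.18 CPM in wt nuclei, 1.49-fold with an interval of 0.862 to 2.73. In the remaining 22 clusters, where more nuclei passed the gate, Onecut2 was at 84.5 CPM in 673 mutant other nuclei and 16.0 CPM in 233 wt other nuclei, 5.28-fold (4.09 to 6.95). Onecut3 was there at 12.2 CPM in mutant nuclei against 2 UMIs or 0.516 CPM in wt nuclei, a ratio of 23.6 (6.41 to 197). Under the gate, both folds were thus larger in nuclei that clustered with dopamine nuclei. This split was chosen after the data were seen. Glial markers differed between the libraries here: the 6 oligodendrocyte markers summed to 272 CPM in mutant and 552 CPM in wt other nuclei, and the 6 astrocyte markers to 302 mutant and 544 wt CPM. Without nuclei rich in glial or vascular markers, Onecut2 was 2.36-fold and Onecut3 3.90-fold higher in mutant other nuclei.

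Across the gate, Onecut2 in the mutant library was higher where dopamine genes were higher, and in the wt library it was lowest in nuclei with many of their tags. Nuclei with under 1 gate UMI per 10000 had 48.1 CPM of Onecut2 in the mutant library and 36.5 CPM in the wt library. Nuclei with 1 to 2 had 95.4 mutant and 23.9 wt CPM, and those with 2 to 5 had 108 mutant and 26.1 wt CPM. Above the gate, nuclei with 5 to 10 had 154 mutant and 22.8 wt CPM, and nuclei with 10 to 20 had 179 mutant and 17.8 wt CPM. Nuclei with 20 to 40 had 181 mutant and 8.69 wt CPM, and the few with 40 or more (7 mutant and 58 wt nuclei) had 174 mutant and 11.7 wt CPM. The gap between libraries was thus narrowest in nuclei with the fewest dopamine tags.

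Nuclei just inside the gate, with 5 to 6 UMIs per 10000, had 116.2 CPM of Onecut2 in the mutant library and 40.2 CPM in the wt library. Those just outside, with 4 to 5, had 116.2 mutant and 21.8 wt CPM, so the gate value marks no step in the mutant library. Onecut3 ran alike at the low end, with 5.22 CPM in mutant and 4.15 CPM in wt nuclei under 1 gate UMI per 10000. It reached 20.03 CPM in mutant and 1.12 CPM in wt nuclei with 5 to 10, and was at 14.8 mutant and 0.305 wt CPM in those with 20 to 40.

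**Figure D2:**
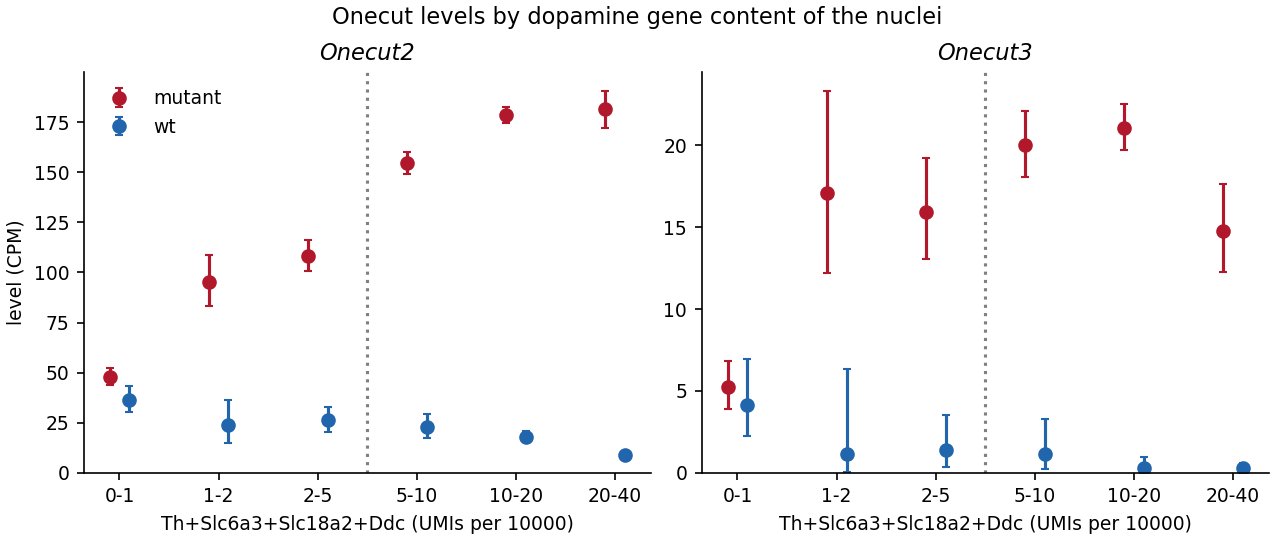
Level in CPM of Onecut2 (left) and Onecut3 (right) in nuclei binned by summed UMIs of the 4 gate genes per 10000, mutant red and wt blue, with 95% Poisson intervals; the dotted line is the gate at 5. Mutant Onecut2 climbs from 48.1 to 181 CPM over the bins while wt Onecut2 declines from 36.5 to 8.69 CPM.

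In the mutant library Onecut2 was found in most dopamine nuclei, and in the wt library in a minority of them. Mutant dopamine nuclei had a median of 3 Onecut2 UMIs and at most 28, with 2 or more in 2090 nuclei (72.7%) and 5 or more in 986 (34.3%). Wt dopamine nuclei had a median of 0 and at most 17, with 2 or more in 107 nuclei (8.11%) and 5 or more in 18 (1.36%). The 10% of nuclei with the most Onecut2 held 32.2% of its UMIs in mutant and 79.3% in wt dopamine nuclei. This value rises as counts fall: it was 56.9% for Onecut3 and 100% for Onecut1 in mutant dopamine nuclei. With means of 4.11 mutant and 0.355 wt Onecut2 UMIs per nucleus, it cannot tell uneven carriage from a low level. Onecut3 had 2 or more UMIs in 328 mutant dopamine nuclei (11.4%) and in 2 wt dopamine nuclei (0.152%). Onecut1 had 2 or more UMIs in 9 mutant dopamine nuclei and in 0 wt dopamine nuclei.

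**Figure D3:**
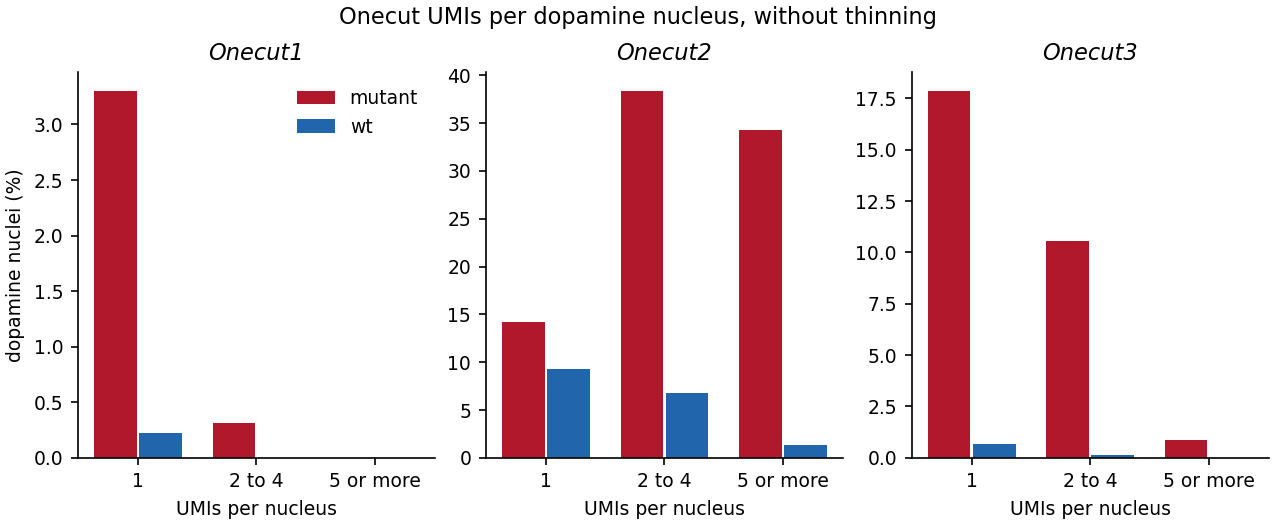
Share of dopamine nuclei (percent) with 1, 2 to 4 or 5 and more UMIs of each Onecut gene, without thinning, mutant red and wt blue, on separate axes that start at 0. For Onecut2 the bar for 5 or more UMIs reaches 34.3% in mutant and 1.36% in wt dopamine nuclei.

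Because depth differed, shares of nuclei with a tag were also taken after thinning each nucleus to 2000 UMIs, which left out 27 mutant and 35 wt dopamine nuclei. Onecut2 was then found in 28.9% of mutant dopamine nuclei (27.2 to 30.6%) and 2.33% of wt dopamine nuclei (1.58 to 3.32%). Without thinning the shares were 86.9% in mutant and 17.3% in wt nuclei. Onecut3 was found in 3.44% of mutant dopamine nuclei and in 0 of 1285 wt dopamine nuclei, which allows a share of up to 0.233%, and without thinning in 29.3% of mutant and 0.833% of wt nuclei. Onecut1 was found in 0.246% of mutant dopamine nuclei and likewise in 0 of 1285 wt dopamine nuclei, and without thinning in 3.62% of mutant and 0.227% of wt nuclei. In other nuclei the thinned share of Onecut2 was 12.4% in the mutant and 4.62% in the wt library, and that of Onecut3 was 2.06% in the mutant and 0.487% in the wt library.

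Glial clusters were read for the background of such shares. In the oligodendrocyte-like cluster, whose nuclei had medians of 2820 mutant and 3485 wt UMIs, thinned Onecut2 was found in 4 of 39 mutant nuclei (10.3%, 2.87 to 24.2%) and 3 of 36 wt nuclei (8.33%, 1.75 to 22.5%). In the astrocyte-like cluster it was found in 0 of 33 mutant and 0 of 39 wt nuclei, which allows up to 9.09% of mutant and 7.69% of wt nuclei. The mutant dopamine share lay above these values. The oligodendrocyte-like cluster was not free of dopamine nuclei: 6 of its 53 mutant nuclei passed the gate and held 9 of its 22 Onecut2 UMIs. The wt dopamine share of 2.33% lay within the interval of wt oligodendrocyte-like nuclei. Summed over that cluster, however, Onecut2 stood at 86.2 CPM in mutant and 63.0 CPM in wt nuclei (34.4 to 106). These levels lay above the 11.9 CPM of wt dopamine nuclei on the wt side. The cluster thus gives no clean background, and whether a single tag in a wt dopamine nucleus is background was not tested. The 18 wt dopamine nuclei with 5 or more tags are not covered by that comparison. The thinned shares of Onecut2 in other nuclei lay within the wide intervals of oligodendrocyte-like nuclei of the same library. Only 11.3% of oligodendrocyte-like nuclei passed the gate, so most of them are themselves other nuclei. Nothing is read from this overlap. The neuronal gene Snap25 was found in 12.8% of mutant and 11.1% of wt oligodendrocyte-like nuclei, and Ddc in 20.5% of mutant and 13.9% of wt nuclei, so tags of neuronal genes were found there too.

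Mutant Onecut2 varied little with the depth of the nuclei. Over 4 bins of dopamine nuclei by UMI total, from shallow to deep, its level was 174, 191, 181 and 161 CPM in the mutant library and 14.4, 11.5, 7.68 and 13.7 CPM in the wt library. These bins are parts of the same libraries and not replicates, and Onecut2 was picked on this contrast. Nothing is thus read from the gap between the libraries over bins. Mutant Onecut3 was at 15.3, 19.0, 20.7 and 20.8 CPM over the same bins. Wt Onecut3 was at 0, 0, 0.0998 and 0.656 CPM, so its few wt tags lay mainly in the deepest nuclei.

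Nuclei were clustered without the 3 Onecut genes to see which ones carried them, which gave 26 clusters. Of these, 14 had mostly dopamine nuclei and at least 50 mutant nuclei, and 10 had mostly dopamine nuclei and at least 50 wt nuclei. Onecut2 ran from 103 to 211 CPM (median 178) over the 14 in the mutant library and from 4.41 to 32.2 CPM (median 11.6) over the 10 in the wt library. It was higher in mutant nuclei in 9 of the 9 clusters that met both limits, with folds of 4.90 to 40.8. Onecut3 ran from 10.1 to 32.3 CPM in mutant clusters and from 0 to 1.86 CPM in wt clusters, 7 of which had 0 UMIs. Onecut1 ran from 0.420 to 2.67 CPM in mutant clusters and had 0 UMIs in 9 of the 10 wt clusters. At a coarser resolution, with 19 clusters, mutant Onecut2 was higher in 7 of 7. Clusters are parts of the same libraries and not replicates, and the genes were picked on this contrast. Nothing is thus read from how many clusters went the same way.

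Among these large dopamine clusters, single ones show both ends of the range. The lowest wt level was in cluster 8, led by 1700011I03Rik and Cgnl1, with 180 CPM in 203 mutant nuclei and 4.41 CPM in 92 wt nuclei. The highest mutant level was in cluster 11, led by Tacr3, a tachykinin receptor gene, with 211 CPM in mutant and 8.22 CPM in wt nuclei. The highest wt levels were in cluster 9, with 158 CPM in mutant and 32.2 CPM in wt nuclei, and cluster 4, led by Eya1 and holding Aldh1a1 among its leading genes, with 176 mutant and 26.2 wt CPM. Onecut3 was highest in cluster 15 (32.3 CPM in mutant nuclei, 0 UMIs in 69 wt nuclei) and cluster 1 (31.1 CPM). Of the 14, 3 were led by glial or microglial genes while holding dopamine nuclei. Cluster 6, led by oligodendrocyte genes such as Mobp, had 155 CPM in mutant and 18.4 CPM in wt nuclei, cluster 16, with Slc7a10 among its leading genes, had 121 mutant and 11.8 wt CPM, and cluster 18, led by Inpp5d, had 145 CPM in mutant and, in 38 wt nuclei, under the limit of 50, 4.38 CPM. Whether they hold doublets was not tested. Cluster 10, led by Calcr, was 37.2% dopamine nuclei and had 129 CPM of Onecut2 in mutant and 6.88 CPM in wt nuclei.

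Some clusters came almost wholly from 1 library and may stand for that library. Cluster 1, led by Hoxc5 and Hoxc4, held 531 mutant nuclei and 1 wt nucleus, and had 183 CPM of Onecut2. Cluster 7, led by Pax3, held 334 mutant and 5 wt nuclei and had 184 CPM. Cluster 3, led by Adamtsl1 and Ndnf, held 6 mutant and 428 wt nuclei, and its wt nuclei had 5.43 CPM. Without the clusters that had under 50 nuclei of either library, Onecut2 was 170 CPM in mutant and 16.5 CPM in wt dopamine nuclei, 10.3-fold. Onecut3 was then 32.6-fold higher (18.5 to 63.4).

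Some clusters with few dopamine nuclei carried Onecut2 in both libraries. Cluster 2, led by Syndig1 and Syt2 and 7.26% dopamine nuclei, had 56.2 CPM in 325 mutant nuclei and 48.6 CPM in 143 wt nuclei, with a fold of 1.16 (0.956 to 1.41). Cluster 26, led by Meis2 and 2.86% dopamine nuclei, had 174 CPM in 28 mutant nuclei and 116 CPM in 7 wt nuclei, with an interval of 0.982 to 2.35 for the fold. The astrocyte-like cluster had 0 Onecut2 UMIs in 44 mutant and 48 wt nuclei.

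**Figure D4:**
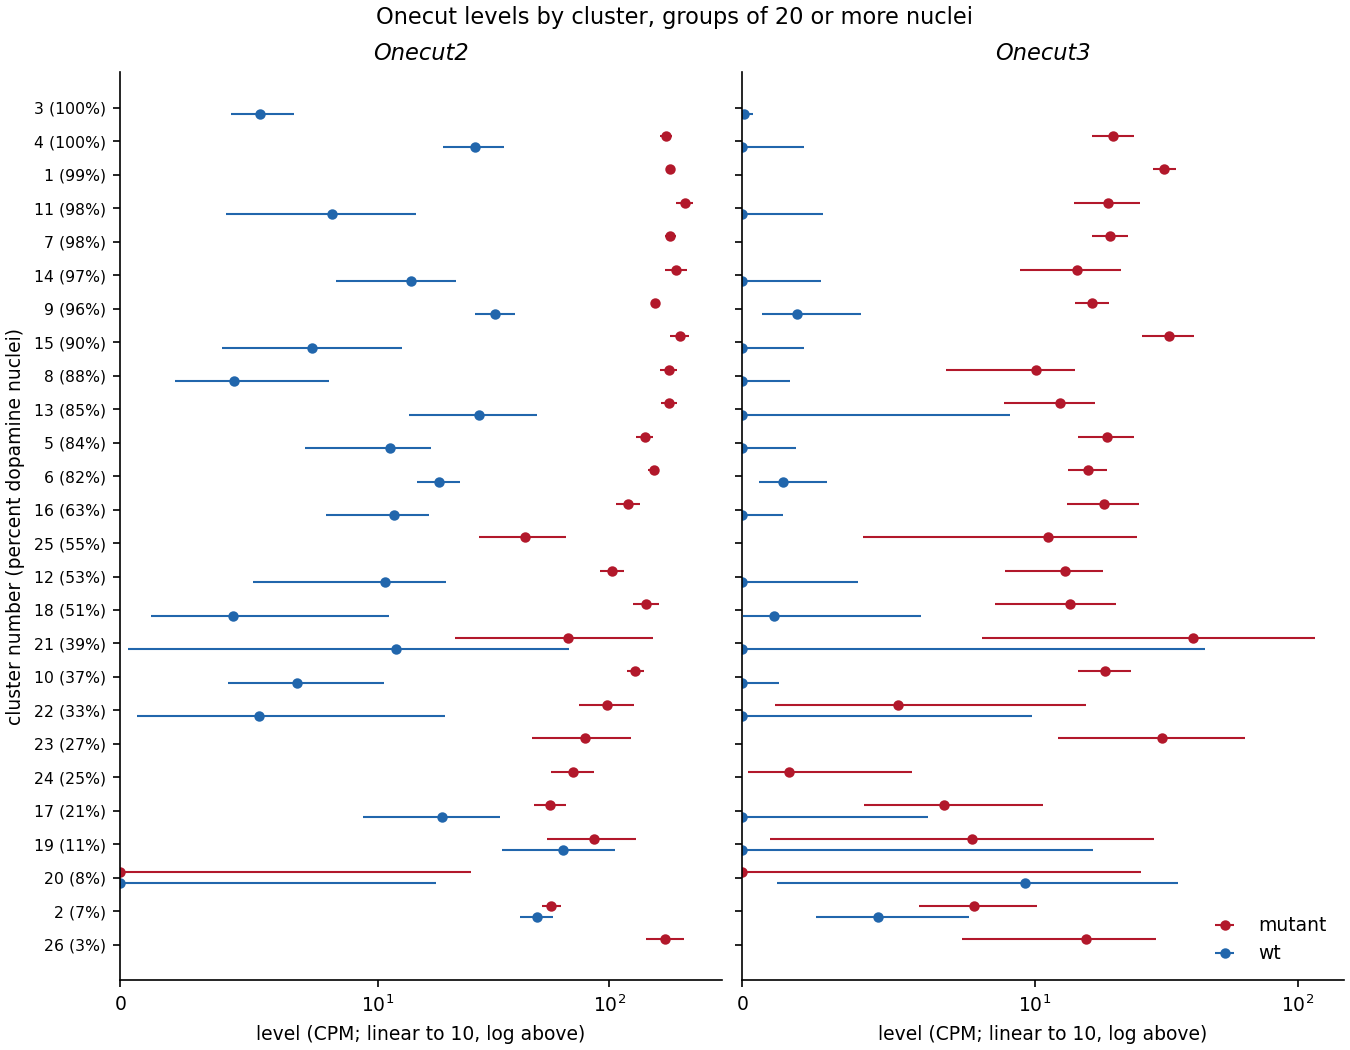
Level in CPM of Onecut2 (left) and Onecut3 (right) in each cluster with 20 or more nuclei of a library, ordered by the percent of dopamine nuclei, mutant red and wt blue, with 95% Poisson intervals; the axis is linear to 10 and logarithmic above. Wt Onecut2 points run from 4.41 to 32.2 CPM in the large dopamine clusters, and the points of both libraries come together in cluster 2 (56.2 CPM in mutant and 48.6 CPM in wt nuclei).

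The 18 wt dopamine nuclei with 5 or more Onecut2 UMIs were not spread evenly. Of them, 8 lay in cluster 9, 3 in cluster 4 and 1 in cluster 3, though cluster 3 held 428 wt dopamine nuclei and clusters 9 and 4 held 58 and 83. Thinned to 5000 UMIs, the 68 wt dopamine nuclei with an Onecut2 tag had a median of 17.5 gate UMIs per 10000, against 24.9 in the 1192 without one. Slc6a3 was found in 57.4% (44.8 to 69.3%) of those with an Onecut2 tag and 76.9% (74.4 to 79.3%) of those without. Gad1, which makes GABA, was found in 4 nuclei or 5.88% (1.63 to 14.4%) of those with and 1.26% (0.706 to 2.07%) of those without. Gad2, which also makes GABA, went the other way, in 5.88% (1.63 to 14.4%) of those with and 7.21% (5.81 to 8.83%) of those without. Nothing is thus read on GABA genes in these nuclei. Wt dopamine nuclei with an Onecut2 tag thus had fewer dopamine tags.

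In the mutant library no such gap in dopamine tags was seen. Thinned to 5000 UMIs, mutant dopamine nuclei with an Onecut2 tag (1548) had a median of 13.9 gate UMIs per 10000, against 13.3 in those without (1237), and Slc6a3 was found in 52.8% (50.3 to 55.3%) of those with and 49.2% (46.3 to 52.0%) of those without. Onecut3 was found in 9.82% (8.38 to 11.4%) of nuclei with Onecut2 and 7.19% (5.82 to 8.78%) of those without. Hoxc4, a homeobox gene of the trunk, was found in 46.1% (39.6 to 52.6%) of the 241 nuclei with an Onecut3 tag and 32.0% (30.2 to 33.8%) of the 2544 without. Pax3, a patterning factor of the dorsal neural tube, was found in 31.6% (29.3 to 34.0%) of nuclei with Onecut2 and 25.0% (22.6 to 27.5%) of those without. For GABA and glycine genes the gaps were smaller: Gad1 was found in 33.7% of mutant nuclei with Onecut2 and 31.4% of those without, Gad2 in 23.6% with and 26.6% without, and the glycine transporter gene Slc6a5 in 26.9% with and 24.5% without. Hoxc4 and Pax3 were chosen with results of these libraries known. Free RNA and doublets also give such pairs of tags, and their part was not tested.

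At 5000 UMIs, 1387 of 2785 mutant dopamine nuclei (49.8%) had a tag of Onecut2 alone, 150 (5.39%) of Onecut2 and Onecut3, 89 of Onecut3 alone, and 1140 (40.9%) of none of the 3. Of 1260 wt dopamine nuclei, 67 (5.32%) had Onecut2 alone and 1190 (94.4%) none. A nucleus without a tag at this depth may still hold the transcript.

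Over 13 clusters of mutant dopamine nuclei, the levels of the members were weakly correlated. The correlation of their log2 levels was 0.30 between Onecut1 and Onecut2, 0.30 between Onecut2 and Onecut3 and 0.17 between Onecut1 and Onecut3. Points share 1 library and differ in depth. Onecut1 ran only from 0.493 to 2.65 CPM over them and Onecut2 from 125.5 to 214.6 CPM. Low correlations over such ranges do not show that the members differ in pattern. The genes most like Onecut2 were Nectin4 (r = 0.91), Rpl39 (0.91), Arih1 (0.91), Grb10 (0.90) and Hspbap1 (0.88). Among those most like Onecut3 were Abca16 (0.88), 4921534H16Rik (0.85), Nkd2 (0.85) and Glis1 (0.84). For Onecut1, which had 1 to 34 UMIs in a cluster, they were Gm13963 (0.90), Snx17 (0.88), Arl5a (0.86), Atg5 (0.85) and Purb (0.85). These are the highest of 16324 genes over 13 points and are given as a description.

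The genes around each member were read next, to see how far a difference between the libraries reached. Of 78 genes within 500 kb of a member, 75 had at least 10 UMIs, 2 passed 1.5-fold upward with the pseudocount and 0 downward. Among all genes with as many UMIs, 1.62% were higher and 1.19% lower by that rule. The genes that passed were noncoding. St8sia3os, an antisense RNA on the minus strand 6.31 kb from Onecut2, stood at 20.3 CPM in mutant and 2.36 CPM in wt dopamine nuclei, 8.61-fold (6.98 to 10.7). In other nuclei it was at 7.81 CPM in the mutant and 5.17 CPM in the wt library. It overlaps St8sia3 on the opposite strand, and since strand use in the counting was not given, their tags may be mixed. The coding genes on either side of Onecut2 were within 1.5-fold: St8sia3 was at 24.8 CPM in mutant and 21.05 CPM in wt dopamine nuclei, and Fech at 24.1 mutant and 23.9 wt CPM. Around Onecut3, a dense region with 58 genes, 55 were measured and 0 passed. Atp8b3, 2.31 kb away, was at 1.76 CPM in mutant and 0.965 CPM in wt dopamine nuclei, 1.82-fold (1.26 to 2.70). With 5 CPM added, genes at such low levels pass only with much larger folds, so the count says little on them.

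Gm20649, a lincRNA on the same strand that spans Onecut1, stood at 9.03 CPM in mutant and 0.457 CPM in wt dopamine nuclei, with 621 mutant and 18 wt UMIs, 19.8-fold (12.4 to 33.6). In other nuclei it was at 4.27 CPM in the mutant and 3.21 CPM in the wt library. Its last exon, chr9:74889306-74891476, starts at the same base as the last exon of Onecut1, chr9:74889306-74891781. It covers 1878 of the 2183 bases (86.0%) of the Onecut1 3' UTR, with the 3 miR-9 seed matches printed above, and leaves 305 bases to Onecut1 alone. Tags from the shared bases cannot be told apart between the genes, and how the counting treated them was not given. The level of Onecut1 is thus uncertain: taken with Gm20649 it was 735 UMIs or 10.7 CPM in mutant and 21 UMIs or 0.533 CPM in wt dopamine nuclei, 20.1-fold. Gm28182, a lincRNA on the minus strand 6.54 kb from Onecut1, had 115 UMIs in mutant and 1 UMI in wt dopamine nuclei, with a ratio of 65.9 and an interval of 11.6 to 2625. It lies within the span of Gm20649 on the opposite strand, and since strand use in the counting was not given, their tags may be mixed.

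**Figure D5:**
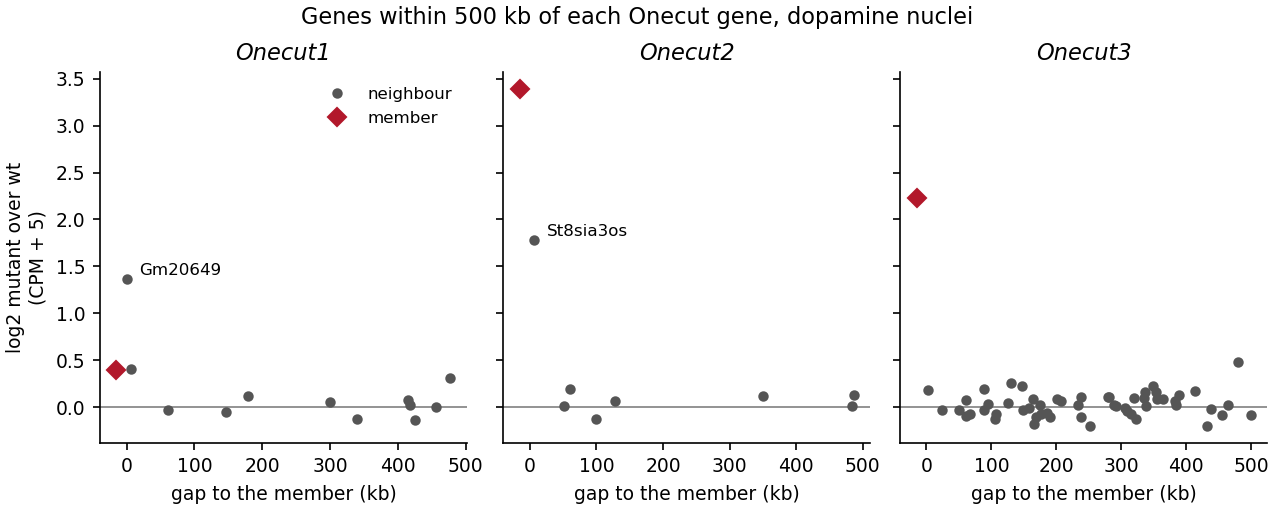
Log2 ratio of mutant to wt level in dopamine nuclei (CPM with 5 added) for genes within 500 kb of each Onecut gene, against the gap in kb; diamonds are the members, drawn left of 0. Gm20649 (1.36) and St8sia3os (1.78) stand off 0, and the other points lie within 0.5 of it.

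Other CUT-domain homeobox genes were read as the nearest relatives. Satb1 was at 214 CPM in mutant and 241 CPM in wt dopamine nuclei and did not pass. In other nuclei Onecut2 and Onecut3 passed 1.5-fold upward, of 7 measured genes with a CUT domain, where 0.786% of genes were higher and 1.55% lower by the same rule.

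Genes tied to Onecut factors in the spinal cord were partly higher. Of 16, 6 passed upward and 0 downward in dopamine nuclei, beside 1.62% of all genes higher and 1.19% lower by that rule, with a median log2 ratio of 0.20, against 0.01 over 20074 genes with at least 10 UMIs. Lhx4, a factor of early motor neurons, was at 14.5 CPM in mutant and 0.0508 CPM in wt dopamine nuclei, with 994 mutant and 2 wt UMIs, a ratio of 285 (78.6 to 2354). Isl1, which acts in motor neurons, was at 11.9 CPM in mutant and 0.584 CPM in wt dopamine nuclei. Mnx1, another motor neuron factor, had 365 UMIs in mutant and 0 in wt dopamine nuclei, at least 69.7-fold higher when 3 UMIs are taken as the wt limit. Nr2f2, an orphan nuclear receptor, was at 9.89 mutant and 3.30 wt CPM. Zfhx3, a large homeobox factor with the most wt UMIs of the list, was at 1575 CPM in mutant and 1982 CPM in wt dopamine nuclei and did not pass. Without a pseudocount, and with the 2 genes at 0 wt UMIs at their bound, the median was 1.32, against 0.02 over all genes. In other nuclei Lhx4 alone passed, upward, of 15 measured, beside 0.786% of all genes higher and 1.55% lower there.

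Of 8 measured genes tied to Onecut factors in the retina, 6 passed upward and 0 downward in dopamine nuclei, beside 1.62% and 1.19% of all genes, with a median of 0.91, or 2.87 without a pseudocount. Pax6, a regulator of eye development, was at 47.5 CPM in mutant and 2.74 CPM in wt dopamine nuclei, 17.3-fold (14.3 to 21.2). Tfap2b, which acts in horizontal and amacrine cells, was at 18.3 mutant and 0.254 wt CPM, Tfap2a at 9.28 mutant and 0.0762 wt CPM, and the LIM homeobox gene Lhx5 at 6.90 mutant and 0.482 wt CPM. Rxrg, a retinoid receptor gene that had the most wt UMIs of the list, was at 8.02 CPM in mutant and 9.55 CPM in wt dopamine nuclei. In other nuclei Tfap2b alone passed, upward, of 8, beside 0.786% of all genes higher and 1.55% lower there.

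The liver and pancreas genes tied to Onecut1 were read likewise. Of 9 measured, 1 passed upward and 0 downward in dopamine nuclei, beside 1.62% and 1.19% of all genes, with a median of 0.03, or 0.11 without a pseudocount and with the gene at 0 wt UMIs at its bound. It was Pdx1, a pancreatic homeobox factor, with 282 UMIs in mutant and 0 in wt dopamine nuclei, at least 53.9-fold higher. Prlr, the prolactin receptor, was at 26.0 mutant and 24.07 wt CPM. In other nuclei 0 of 8 passed upward and Sox9, a glial and progenitor factor, passed downward. Among all genes there, 0.786% were higher and 1.55% lower.

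Regulators of midbrain dopamine neurons went both ways. Of 14, 2 passed upward and 2 downward in dopamine nuclei, beside 1.62% and 1.19% of all genes, with a median of -0.22, or -0.26 without a pseudocount. En1, an engrailed factor needed for survival of these neurons, was at 29.3 CPM in mutant and 75.1 CPM in wt dopamine nuclei, and Pitx3, which acts upstream of Th, at 6.33 mutant and 18.1 wt CPM. Neurog2, a proneural factor, was at 3.29 CPM in mutant and 0.229 CPM in wt dopamine nuclei, and Msx1 had 188 UMIs in mutant and 1 UMI in wt dopamine nuclei. Sox6, found in nigral dopamine neurons, was at 442 mutant and 432 wt CPM. In other nuclei 0 of 13 passed in either direction, beside 0.786% of all genes higher and 1.55% lower there.

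Host transcripts of miR-9 and miR-124, the brain microRNAs, were read beside the seed matches above. Of 4 measured, 0 passed 1.5-fold in dopamine nuclei and 0 in other nuclei. Among all genes, 1.62% were higher and 1.19% lower in dopamine nuclei, and 0.786% higher and 1.55% lower in other nuclei. With so few genes beside such shares, the count does not show that the hosts were unchanged. Their median in dopamine nuclei was 0.36, against 0.01 over all genes. C130071C03Rik, a host of miR-9, was at 148 CPM in mutant and 171 CPM in wt dopamine nuclei, and Mir9-3hg at 23.9 mutant and 16.7 wt CPM. Mir124a-1hg was at 249.9 CPM in mutant and 195 CPM in wt dopamine nuclei. The microRNAs themselves were not measured.

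Of 6 genes of GABA and glycine transmission, 4 passed upward and 0 downward in dopamine nuclei, beside 1.62% and 1.19% of all genes, with a median of 1.04, or 1.86 without a pseudocount. Gad1 was at 99.4 CPM in mutant and 4.29 CPM in wt dopamine nuclei, and Gad2, the other GABA-making enzyme, at 73.0 mutant and 28.4 wt CPM. Slc32a1, the vesicular transporter of both transmitters, was at 6.36 mutant and 1.24 wt CPM, and Slc6a5 at 73.4 CPM in mutant nuclei against 5 UMIs or 0.127 CPM in wt nuclei. In other nuclei Slc32a1 and Slc6a5 passed upward, of 6, beside 0.786% of all genes higher and 1.55% lower there. The lists were chosen with earlier results of these libraries known, so their direction is no independent support.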

How the data were processed

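The authors deposited 1 table of whole-number UMI counts, not normalised, with 23481 genes and 5740 nuclei. Cell Ranger 3.1.0 and mm10 are listed, per the submitters' processing notes, with no role, and filters before deposit are not given in the sources used here. Nuclei were assigned to the mutant or wt library by the start of their names; lanes are pooled in the table. No further nucleus was removed. Scrublet marked 6 nuclei in each library (0.151% and 0.339%), which means it did not work, so doublets remain.

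UMIs of a class in a library were added up and scaled to CPM. Folds are CPM ratios; their exact 95% intervals treat the UMIs of a gene as split binomially between libraries, levels have exact Poisson intervals, and shares have exact Clopper-Pearson intervals; a share of 0 allows 3 nuclei. Intervals and floors cover counting error only. Genes were counted as higher or lower by log2 ratios with a pseudocount of 5 CPM: 2-fold for genes with at least 50 UMIs, 1.5-fold for listed genes and neighbours with at least 10. Nuclei were thinned without replacement to 2000 UMIs, or to 5000 for tags found together. Leiden clustering (resolution 0.8, 30 principal components of 2000 variable genes, 15 neighbours) left out the 3 Onecut genes and was not integrated. Of 13 marker lists only those for oligodendrocytes and astrocytes gave a cluster its name. Clusters led by glial markers that held dopamine nuclei were not renamed.

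Positions came from GENCODE M21, where 23058 symbols matched 1 gene. Promoter and microRNA sequences came from RefSeq (GRCm38.p6). Of the members, only Onecut1 was matched in the promoter table used, and Onecut2 sequence and a few genes that the rules below name are not reported here. Named genes were, per list, up to 4 past 1.5-fold with the largest ratio and the one with the most wt UMIs, the genes within 500 kb of a member, and the 5 most like each member over clusters. The sum of Onecut1 and Gm20649 was chosen after its values were seen. The members and lists were chosen with earlier results of these data known. Alternatives were TMM scaling, the mean over nuclei, gates at 3 and 10, other pseudocounts, no thinning, no filter on low counts, a coarser clustering, nuclei with at least 5000 UMIs, clusters that carry dopamine markers in place of the gate, and leaving out the deepest 5% of nuclei, called doublets, or nuclei with at least 10 glial or vascular marker UMIs per 10000. Software was matplotlib 3.10.9, leidenalg 0.10.2, igraph 0.11.9, scanpy 1.11.5, pandas 2.3.3, scipy 1.17.1 and numpy 2.4.6 in Python 3.11.15, and edgeR 4.0.16 in R 4.3.3 for TMM factors only. The calculation was also run on simulated counts drawn with Poisson error alone. These hold no spread between nuclei or mice, so they check the calculation and not the contrast between libraries.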

Additional observations from a re-analysis of the deposited data

How the results depend on the processing

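With 1 library per genotype, no mouse could be left out, and p-values were not possible. No paired analysis was possible because the table pools the lanes of each library. No fold of a member changed direction under the alternatives run. Among all genes of other nuclei more were higher than lower by 2-fold with a gate at 10, and as many with TMM scaling (39 and 39), while more were lower otherwise. Onecut2 in dopamine nuclei was 16.2-fold higher in the mutant library with a gate at 10 UMIs per 10000, 17.4-fold without the 5% of nuclei with the most UMIs, and 10.3-fold without clusters with under 50 nuclei of a library. Onecut3 was 113.7-fold higher as a mean over nuclei, 129.5-fold without the deepest 5% and 32.6-fold without those clusters. Its 14 wt UMIs limit that value. Onecut1, with 3 wt UMIs at the main gate, was 66.5-fold higher with a gate at 10 (11.6 to 2656). It was 32.7-fold higher in clusters that carry dopamine markers (8.85 to 273). These values rest on even fewer wt UMIs. Onecut1 was 11.05-fold higher as a mean over nuclei and 10.03-fold without the clusters with under 50 nuclei of a library. In other nuclei Onecut2 was 1.91-fold higher with a gate at 3 and 4.01-fold with a gate at 10, 1.25-fold in clusters with under 20% dopamine nuclei and 5.28-fold in the rest. Onecut3 there was 6.07-fold higher as a mean over nuclei, 6.80-fold with a gate at 10, 1.49-fold in clusters with under 20% dopamine nuclei and 23.6-fold in the rest. Onecut1 there, with 1 wt UMI at the main gate, was 3.61-fold higher with a gate at 10 (1.15 to 18.2), where more wt UMIs were counted. It was 3.33-fold higher in clusters with under 20% dopamine nuclei (0.447 to 148). The Onecut2 share of dopamine nuclei was 55.6% in mutant and 5.40% in wt nuclei at 5000 UMIs, and 86.9% in mutant and 17.3% in wt nuclei without thinning. Counts of genes past 2-fold in dopamine nuclei were 348 higher and 144 lower with a pseudocount of 1 CPM and 97 and 31 with 10 CPM, against 156 and 49. In other nuclei they were 129 and 163 with 1 CPM, 10 and 18 with 10 CPM and 88 and 75 with a gate at 10, against 38 and 44. Listed genes higher by 1.5-fold numbered 13 with 10 CPM, against 22. The splits by cluster were chosen after the data were seen. Causes of these shifts were not tested.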
